A study of Mus musculus with 13 samples.

Results

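Cytotoxic effector and NK receptor genes were followed across the cells of the libraries of a mouse lung study. They are the granzyme genes Gzma, Gzmb and Gzmk, the pore gene Prf1, the granule gene Nkg7, the receptor genes Klrb1c, Klre1 and Ncr1, the cytokine gene Ifng and the chemokine gene Ccl5. These 10 genes of the 31053 listed were chosen by symbol, and their levels were read as unique molecular identifiers (UMIs, each marking 1 captured RNA molecule) in barcodes with at most 10% mitochondrial UMIs. The study built mouse models of asthma and of elastase-induced emphysema and profiled dissociated lung cells. By its labels, 1 sample each is Asthma, Control, PPE-emphysema and PPE-recovery, where PPE is porcine pancreatic elastase, and 3 samples each are Acute injury, Con and emphysema, 13 in all. The mice were C57BL/6, and asthma was induced with ovalbumin. The paper describes 1 mouse for each single-cell group, which were asthma, emphysema, recovery and control. The deposited cells carry 7 library numbers and no group, so that no library could be assigned to a model. Libraries outnumber these groups, so it is not known whether each library is a separate mouse. The matrix was read as 1 sample, and no test between groups was possible.

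Natural killer (NK) cells and Cd8a T cells kill target cells by releasing granules. Perforin opens the membrane of the target, and granzymes, which are serine proteases, enter and cleave its proteins. NK cells carry germline-encoded receptors in place of a T cell receptor, and in the lung they and memory Cd8a cells are sources of interferon gamma.

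Of 37344 barcodes, 33618 were kept, with 291580908 UMIs and a median of 6684.5 per cell, and single libraries kept 2992 to 7626 cells and 29619014 to 76435633 UMIs. Libraries 1, 2, 3 and 7 held epithelial RNA, with 2674 to 9212 CPM (UMIs of a gene per 1000000 UMIs) of Sftpc, the surfactant protein C gene, against 0 to 0.0660 in libraries 4, 5 and 6. Libraries 4, 5 and 6 were rich in globin, with 160900 to 200407 CPM of Hbb-bs against 40.5 to 156, and their shallowest barcode had 3439 to 5735 UMIs against 304 to 501. Cells later named endothelial or fibroblast numbered 0 in libraries 4, 5 and 6. The division of the libraries was read from their composition and is not a division of the study. Since it may mark tissue, preparation or model, which cannot be told apart here, many levels and ratios are also given by library or with a library left out. Genes per cell, pairs of genes within cells, the list of other genes and the genes most alike are pooled over the libraries only. Across libraries 153 barcode sequences recurred, and none of the pairs had identical counts.

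Clusters were made without the 10 genes and named from other markers, and the lymphoid clusters (2533 cells) were divided by UMIs of Cd3d, Cd3e or Cd3g and of Cd8a and Cd4. The division gave 431 NK cell-like cells without a Cd3 UMI, 39 NK cell-like cells with one, 786 Cd8a cells, 640 Cd4 cells and 535 Cd3-positive cells with neither. All 10 NK markers used for naming were found in the NK cell-like cells, among them Klrd1 at 997 CPM, Il2rb at 1071 CPM and Eomes at 334 CPM. Trac, the T cell receptor alpha constant gene, was at 13.6 CPM there and at 416 CPM in Cd8a cells. B cells (4292) served as a measure of free RNA, since they should lack these genes. In them Gzma was at 4.02 CPM and Ccl5 at 9.52 CPM, each highest in library 6 (7.65 and 14.6 CPM), and the other 8 genes were at 0.0774 to 2.01 CPM.

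All 10 genes are protein-coding. In GRCm38 with the GENCODE M21 annotation they lie on 6 chromosomes, and 2 pairs are near neighbours. Gzma (chr13:113093825-113100981, minus strand) and Gzmk (chr13:113171608-113225908, minus strand) are 70.6 kb apart with 0 protein-coding genes between them, and Gzmk overlaps Esm1 on the plus strand. Klrb1c (chr6:128778485-128789215, minus strand) and Klre1 (chr6:129577905-129585827, plus strand) are 789 kb apart with 17 protein-coding genes between them, in the NK receptor region. The others are Gzmb (chr14:56258838-56262260, minus strand), Prf1 (chr10:61297833-61304680, plus strand), Ifng (chr10:118441046-118445892, plus strand), Ncr1 (chr7:4337724-4345164, plus strand), Nkg7 (chr7:43437073-43438249, plus strand) and Ccl5 (chr11:83525778-83530518, minus strand). Klrb1c and Ifng each overlap a predicted gene on the same strand, Gm44511 and Gm49751, so their reads could have been divided.

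RefSeq (GRCm38.p6) gave windows from 250 bases before to 50 bases after the start for 9 of the 10 genes, 11 windows in all. The results below turn on Gzma, Gzmk, Gzmb and Ncr1, whose windows are shown 5′ to 3′ on the strand of the gene. The neighbours Gzma and Gzmk had opposite patterns in NK cell-like and Cd8a cells, Gzmb was the granzyme found outside lymphoid cells, and Ncr1 was the gene with the widest gap between NK cell-like and Cd8a cells. Capitals mark the letters TCACAC (T-box core), TGTGGT (Runx) and TTCNNNGAA (STAT) on either strand, which belong to factor families known to act in cytotoxic lymphocytes.
Gzma (chr13:113100932-113101231, minus strand): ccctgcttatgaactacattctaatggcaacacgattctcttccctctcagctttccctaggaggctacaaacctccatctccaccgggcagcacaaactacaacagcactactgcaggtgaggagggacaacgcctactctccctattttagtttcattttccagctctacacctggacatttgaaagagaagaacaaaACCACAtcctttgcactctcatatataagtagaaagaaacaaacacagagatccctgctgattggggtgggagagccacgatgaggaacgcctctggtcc
Gzmk (chr13:113180916-113181215, minus strand): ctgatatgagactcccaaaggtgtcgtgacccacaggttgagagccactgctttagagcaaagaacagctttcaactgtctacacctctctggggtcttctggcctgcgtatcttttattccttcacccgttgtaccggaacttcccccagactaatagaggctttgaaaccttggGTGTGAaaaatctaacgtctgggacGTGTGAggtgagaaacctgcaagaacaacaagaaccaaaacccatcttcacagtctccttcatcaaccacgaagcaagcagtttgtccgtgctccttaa
Gzmb (chr14:56262285-56262584, minus strand): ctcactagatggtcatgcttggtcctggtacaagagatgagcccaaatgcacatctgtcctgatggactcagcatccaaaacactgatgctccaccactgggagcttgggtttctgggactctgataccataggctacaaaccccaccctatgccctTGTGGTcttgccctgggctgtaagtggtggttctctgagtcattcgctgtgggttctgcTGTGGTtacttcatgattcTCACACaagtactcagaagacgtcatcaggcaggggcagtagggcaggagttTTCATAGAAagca
Ncr1 (chr7:4337465-4337764, plus strand): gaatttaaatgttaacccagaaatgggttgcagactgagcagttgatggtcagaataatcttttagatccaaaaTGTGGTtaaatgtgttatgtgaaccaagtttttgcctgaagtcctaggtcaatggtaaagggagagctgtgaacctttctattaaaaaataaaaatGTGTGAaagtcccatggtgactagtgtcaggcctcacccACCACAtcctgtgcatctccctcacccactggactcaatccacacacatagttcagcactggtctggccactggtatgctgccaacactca
The Gzma window held 1 Runx match and the Gzmk window 2 T-box matches, with no match of another kind in either. The Gzmb window held 1 T-box, 2 Runx and 1 STAT match, and the Ncr1 window 1 T-box and 2 Runx matches. Of all 32851 RefSeq windows of this length, 14.5% held the T-box letters, 16.8% the Runx letters and 8.30% the STAT letters, so a match is a description of the letters only.

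NK cell-like cells without Cd3 had the highest level of 9 of the 10 genes among the lymphoid, dendritic and other classes of at least 100 cells, and Cd8a cells had the highest level of Gzmk. Values are CPM of pooled UMIs with an exact Poisson 95% interval, which covers counting error only, as do the exact binomial intervals of shares.

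**Figure D1:**
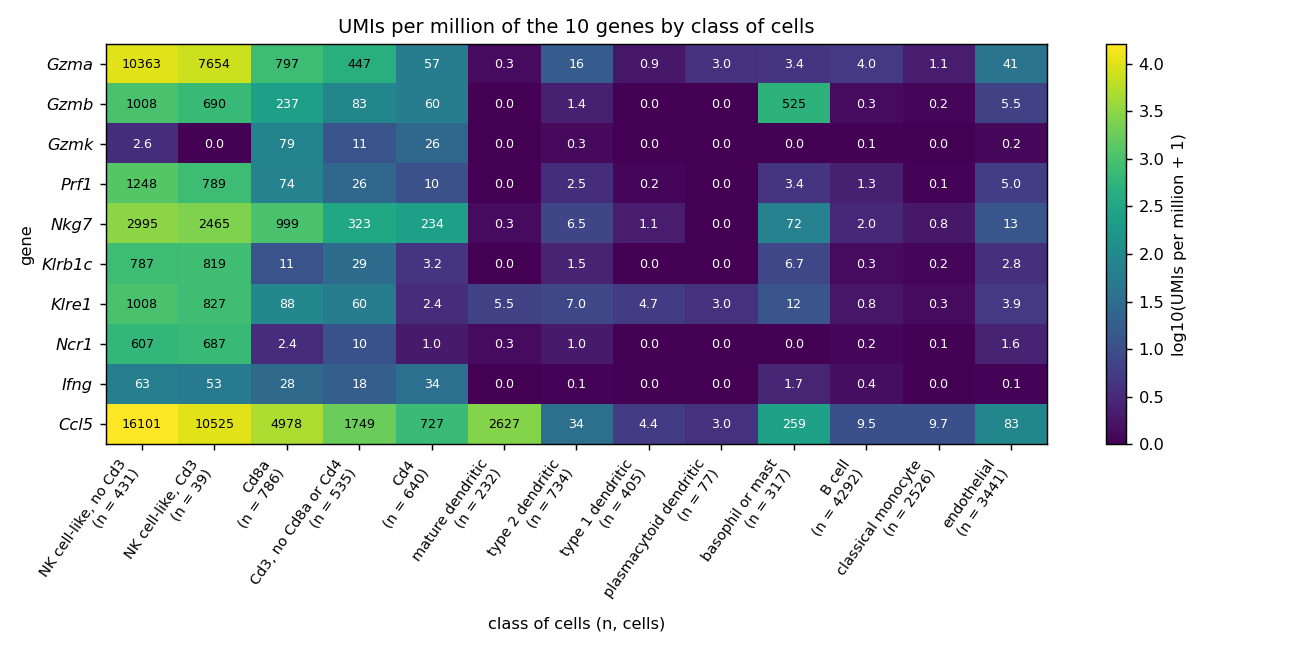
CPM of the 10 genes (rows) in 13 classes of cells (columns, with the number of cells), with color on a log10 scale of the value plus 1. NK cell-like cells stand highest for 9 genes in the comparison with Cd8a cells, Gzmk is highest in Cd8a cells at 79.4 CPM, Ccl5 reaches 2627 CPM in mature dendritic cells and Gzmb 525 CPM in the basophil or mast cell-like cluster.

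The granzymes divided NK cell-like from Cd8a cells in both directions. Gzma, a tryptase of the granule, was at 10363 CPM in NK cell-like cells (10233 to 10494), 797 CPM in Cd8a cells (776 to 819) and 57.1 CPM in Cd4 cells (50.7 to 64.2). Gzmb, which cleaves after aspartate and activates caspases, was at 1008 CPM (968 to 1050), 237 CPM (225 to 249) and 60.0 CPM (53.3 to 67.2) in the same order. Gzmk, another tryptase, ran the other way, with 2.55 CPM in NK cell-like cells (0.937 to 5.56), 79.4 CPM in Cd8a cells (72.8 to 86.5) and 25.8 CPM in Cd4 cells (21.6 to 30.7). Its NK value rests on 6 UMIs in 4 cells, which came from libraries 5 and 6, and the 39 NK cell-like cells with Cd3 held 0 UMIs, which allows up to 11.4 CPM. Without library 5 the Gzmk level of NK cell-like cells was 1.24 CPM, and the Gzma level of Cd4 cells was 27.5 CPM. Cd8a cells held 69.9% of all Gzmk UMIs and NK cell-like cells without Cd3 held 65.3% of all Gzma UMIs.

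Prf1 and Nkg7 followed Gzma in order. Prf1, perforin, was at 1248 CPM in NK cell-like cells (1203 to 1294), 74.3 CPM in Cd8a cells (67.9 to 81.1) and 10.1 CPM in Cd4 cells (7.49 to 13.3). Nkg7, a membrane protein of the granule needed for its release, was at 2995 CPM (2926 to 3066), 999 CPM (975 to 1023) and 234 CPM (221 to 248). A UMI of Nkg7 was found in 88.2% of Cd8a cells and in 99.5% of NK cell-like cells. So that shares could be compared, every cell with at least 1500 UMIs was thinned to that depth. Shallower cells were left out, among them 16 of the 431 NK cell-like cells. At this depth the shares of Nkg7 were 56.9% of 785 Cd8a cells and 96.4% of 415 NK cell-like cells, against 0.258% of 4268 B cells. The corresponding shares for Prf1 were 11.7%, 79.3% and 0.164%.

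Klrb1c and Ncr1 showed the widest gaps between NK cell-like and Cd8a cells. Klrb1c, the gene of NK1.1, was at 787 CPM in NK cell-like cells (752 to 824), 10.7 CPM in Cd8a cells (8.39 to 13.5) and 3.23 CPM in Cd4 cells (1.85 to 5.25). Ncr1, the gene of the activating receptor NKp46, was at 607 CPM (576 to 639), 2.42 CPM (1.38 to 3.93) and 1.01 CPM (0.328 to 2.36), and the Cd8a and Cd4 intervals overlap. Klre1, a lectin-like receptor that pairs with other family members, was at 1008 CPM (968 to 1050), 88.0 CPM (81.0 to 95.5) and 2.42 CPM (1.25 to 4.23). Klre1 therefore had an intermediate level in Cd8a cells, with a UMI in 160 of 786 (20.4%), whereas Klrb1c had a UMI in 31 (3.94%) and Ncr1 in 6 (0.763%). Without library 6 the Ncr1 level of Cd8a cells was 0.795 CPM, and without library 4 the Cd4 levels of Klrb1c and Ncr1 were 1.65 and 0.206 CPM.

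Ifng was the gene whose levels were closest across the classes. It was at 63.4 CPM in NK cell-like cells (53.6 to 74.4), 33.9 CPM in Cd4 cells (29.0 to 39.4) and 27.5 CPM in Cd8a cells (23.7 to 31.8), and the intervals of the T cell classes overlap. Without library 2 the Cd4 level was 13.5 CPM and the order of Cd8a and Cd4 cells turned, with a Cd8a level 1.75 times that of Cd4 cells. Ccl5, a chemokine that draws T cells, eosinophils and monocytes, was at 16101 CPM in NK cell-like cells (15940 to 16265), 4978 CPM in Cd8a cells (4925 to 5032) and 727 CPM in Cd4 cells (704 to 751). Over the pooled libraries mature dendritic cells stood between Cd8a and Cd4 cells at 2627 CPM. This order did not hold in library 3, where they were above Cd8a cells, or in library 7, where they were below Cd4 cells.

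For the comparison of NK cell-like with Cd8a cells, all 10 genes passed the minimum of 50 UMIs in the pair. At least 2-fold higher in NK cell-like cells were 9 of 10, against 8.72% of the 8990 genes compared, and at least 2-fold lower was 1, Gzmk, against 7.83%. The ratio was 13.0 for Gzma (12.6 to 13.4), 16.8 for Prf1 (15.3 to 18.5), 4.26 for Gzmb (3.99 to 4.54), 2.998 for Nkg7 (2.899 to 3.101) and 3.23 for Ccl5 (3.19 to 3.28). Among the receptors it was 251 for Ncr1 (154 to 440), 73.3 for Klrb1c (57.8 to 94.3) and 11.5 for Klre1 (10.5 to 12.6). For Ifng it was 2.30 (1.84 to 2.88), and without library 6 it was 1.996, under the 2-fold limit. Ncr1 rests on 16 Cd8a UMIs, and its ratio without library 6 was 769. Without library 5 the ratio of Gzmb was 6.74 and that of Gzmk, 0.0321 with all libraries, was 0.0171. All 9 genes were higher in NK cell-like cells within each of the 7 libraries, and Gzmk was lower in each of the 7. Within libraries the ratio of Gzma ran from 6.55 to 39.5, that of Prf1 from 13.7 to 26.6, that of Gzmb from 1.41 to 15.04 and that of Ifng from 1.08 to 27.6.

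The comparison of Cd8a with Cd4 cells shares its Cd8a cells with the one above. At least 2-fold higher in Cd8a cells were 8 of the 9 genes compared, against 1.98% of 9506 genes, and at least 2-fold lower were 0 of 9, against 5.27%. Klre1 had the widest ratio, 36.3 (20.6 to 70.7), followed by Gzma at 13.9 (12.4 to 15.8), Prf1 at 7.36 (5.49 to 10.1) and Ccl5 at 6.84 (6.61 to 7.09). Smaller were Nkg7 at 4.27, Gzmb at 3.95, Klrb1c at 3.33 and Gzmk at 3.07. Ifng was the exception at 0.812 (0.655 to 1.01), with 0.446 without library 1 and 1.75 without library 2, and Ncr1 had too few UMIs to be counted. Nkg7, Klre1 and Ccl5 were higher in Cd8a cells in 7 of 7 libraries, whereas Gzma, Gzmb, Gzmk and Prf1 were higher in 6 of 7 and Ifng in 4 of 7. Without library 5 the Gzma ratio was 23.2, and without library 4 that of Klrb1c was 6.85.

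Other genes of cytotoxic and NK cells were read from a list of 71, of which 69 were in the matrix. Of the 58 with enough UMIs in NK cell-like and Cd8a cells, 9 had also served to name the NK cell-like cluster (Klra4, Klra7, Klra8, Klrd1, Klrk1, Eomes, Il2rb, S1pr5 and Itga2), so their direction is no finding. Of the other 49, 32 were at least 2-fold higher in NK cell-like cells, against 8.72% of all genes compared. At least 2-fold lower were 5 of the 49, near the share of 7.83% over all genes, so the lower genes named below are a description only. The median log2 ratio was 1.78, against 0.18 over all genes compared. With the 9 included the counts were 41 and 5 of 58 and the median 2.13. The largest log2 ratios were those of the receptor genes Klra4 (9.66), Klra8 (8.23), Klri2 (8.02), Klrb1a (7.81) and Klrb1b (7.74), of which Klra4 and Klra8 had named the cluster. Lower in NK cell-like cells were Ifngr2 (-2.30), Tnfsf10 (-2.07), Cxcr3 (-1.70), Gzmm (-1.48) and Cd27 (-1.27). Gzmm, a granzyme of the list, was thus at 11.5 CPM in NK cell-like and 32.1 CPM in Cd8a cells, the same direction as Gzmk. Between Cd8a and Cd4 cells 20 of 52 were at least 2-fold higher, against 1.98% of all genes compared. At least 2-fold lower were 2 of 52, Ccr1 (-2.57) and Fcgr3 (-1.20), near the share of 5.27% over all genes. The median log2 ratio was 0.35 against -0.16 over all genes compared.

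Single NK cell-like cells carried most of the genes together. At 1500 UMIs per cell, the median NK cell-like cell held a UMI of 7 of the 10 genes, and 381 of 415 held at least 5 (91.8%, 88.7 to 94.3). The median Cd8a cell held 1, with 256 of 785 at 0 (32.6%) and 72 at 5 or more (9.17%, 7.25 to 11.4). The median Cd4 cell held 0, with 145 of 636 at 1 or more (22.8%) and 2 at 5 or more (0.314%). B cells had at least 1 of the genes in 137 of 4268 (3.21%) and at least 3 in 0, which allows up to 0.0703%. Outside the lymphoid clusters, the 3441 endothelial cells had Gzma at 40.6 CPM. At full depth 96.4% of those UMIs lay in 14 cells that held at least 5 of the genes. At 1500 UMIs per cell 10 of 3155 endothelial cells held at least 5 (0.317%).

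**Figure D2:**
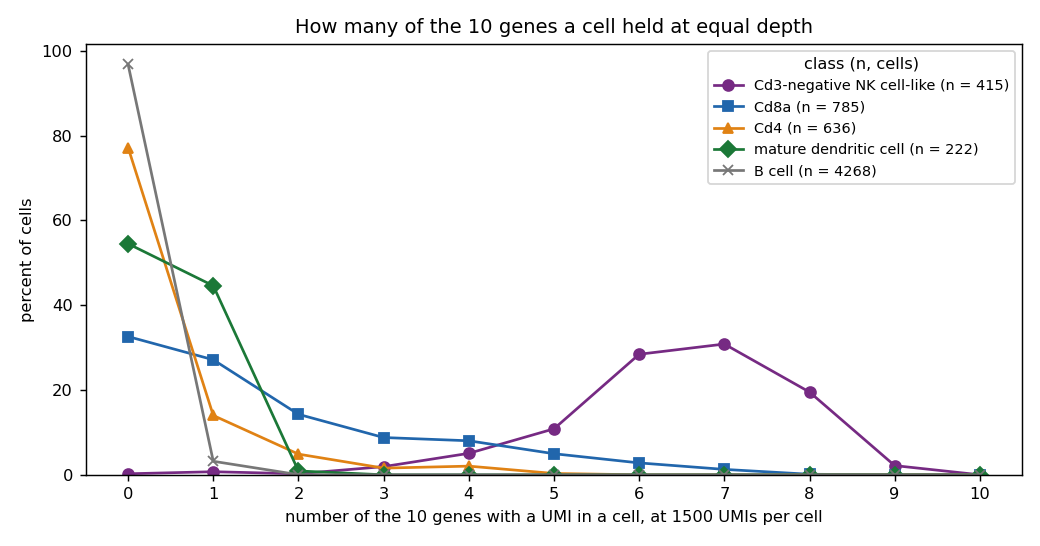
Percent of cells (vertical axis) by how many of the 10 genes had a UMI after thinning to 1500 UMIs (horizontal axis), for 5 classes, with shallower cells left out. NK cell-like cells peak at 7 genes, Cd8a cells spread from 0 to 8 with 9.17% at 5 or more, mature dendritic cells stand at 0 or 1 and B cells at 0.

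Within Cd8a cells the granzymes were found in the same cells. At equal depth a UMI of Gzmb was found in 73 of 115 Cd8a cells with Gzma (63.5%, 54.0 to 72.3) and in 29 of 670 without it (4.33%, 2.92 to 6.16). Gzma was found in 35 of 60 cells with Gzmk (58.3%, 44.9 to 70.9) and in 80 of 725 without it (11.03%, 8.85 to 13.5). Ccl5 was present in 60 of 60 cells with Gzmk and in 283 of 725 without it (39.0%), and Gzma in 111 of 343 cells with Ccl5 (32.4%) and in 4 of 442 without it (0.905%). Ccl5 was thus found more widely than the granzymes and included nearly all of the cells that held them. Nkg7 had a UMI in 274 of 343 cells with Ccl5 (79.9%) and in 173 of 442 without it (39.1%). Perforin was less tied to the granzymes in Cd8a cells, with a UMI in 32 of 115 cells with Gzma (27.8%) and in 60 of 670 without it (8.96%).

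In NK cell-like cells, where nearly all cells held Gzma, Nkg7 and Ccl5, Prf1 was found in 216 of 249 cells with Gzmb (86.7%, 81.9 to 90.7) and in 113 of 166 without it (68.1%, 60.4 to 75.1). Ncr1 was found in 177 of 280 cells with Klrb1c (63.2%, 57.3 to 68.9) and in 65 of 135 without it (48.1%, 39.5 to 56.9). For Klre1 the shares with Ncr1 were 188 of 321 (58.6%) and 54 of 94 (57.4%), and their intervals overlap widely.

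In NK cell-like cells the libraries with epithelial RNA stood above the globin-rich ones for 6 effector genes, and overlapped with them for the 3 receptors. In libraries 1 to 7, with 59, 89, 34, 14, 110, 85 and 40 cells, Gzma was at 14557, 15205, 10340, 5883, 8863, 7748 and 12252 CPM. Gzmb was at 1408, 1778, 1493, 717, 641, 465 and 1668 CPM. Both were higher in each of libraries 1, 2, 3 and 7 than in each of the globin-rich libraries 4, 5 and 6. Prf1 was at 1449, 1542, 1309, 834, 996, 1083 and 2030 CPM, and Nkg7 at 3812, 4159, 3319, 1769, 2603, 2513 and 3202 CPM. The same libraries were high for both genes. Ifng was at 154, 119, 64.7, 15.6, 33.9, 35.0 and 76.2 CPM, and Ccl5 at 18623, 21876, 19484, 9498, 15433, 10509 and 20850 CPM. The values of neither overlapped between the sides. The intervals of Ifng did, with 33.4 to 113 CPM in library 3 (12 UMIs) and 20.7 to 55.3 CPM in library 6. Those of Prf1 did too, with 1150 to 1485 CPM in library 3 and 995 to 1177 CPM in library 6. Klrb1c was at 815, 834, 636, 397, 786, 818 and 982 CPM, Klre1 at 969, 1086, 862, 522, 1065, 1063 and 1010 CPM, and Ncr1 at 720, 680, 453, 421, 611, 593 and 634 CPM. All 3 receptors overlapped between the sides, and library 4, with 14 cells, was the lowest for each. With hemoglobin genes left out of the totals library 3 was the lowest for each in its place (636, 862 and 453 CPM), and the globin-rich libraries stood at 666 to 906 CPM for Klrb1c, 876 to 1177 CPM for Klre1 and 652 to 706 CPM for Ncr1.

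**Figure D3:**
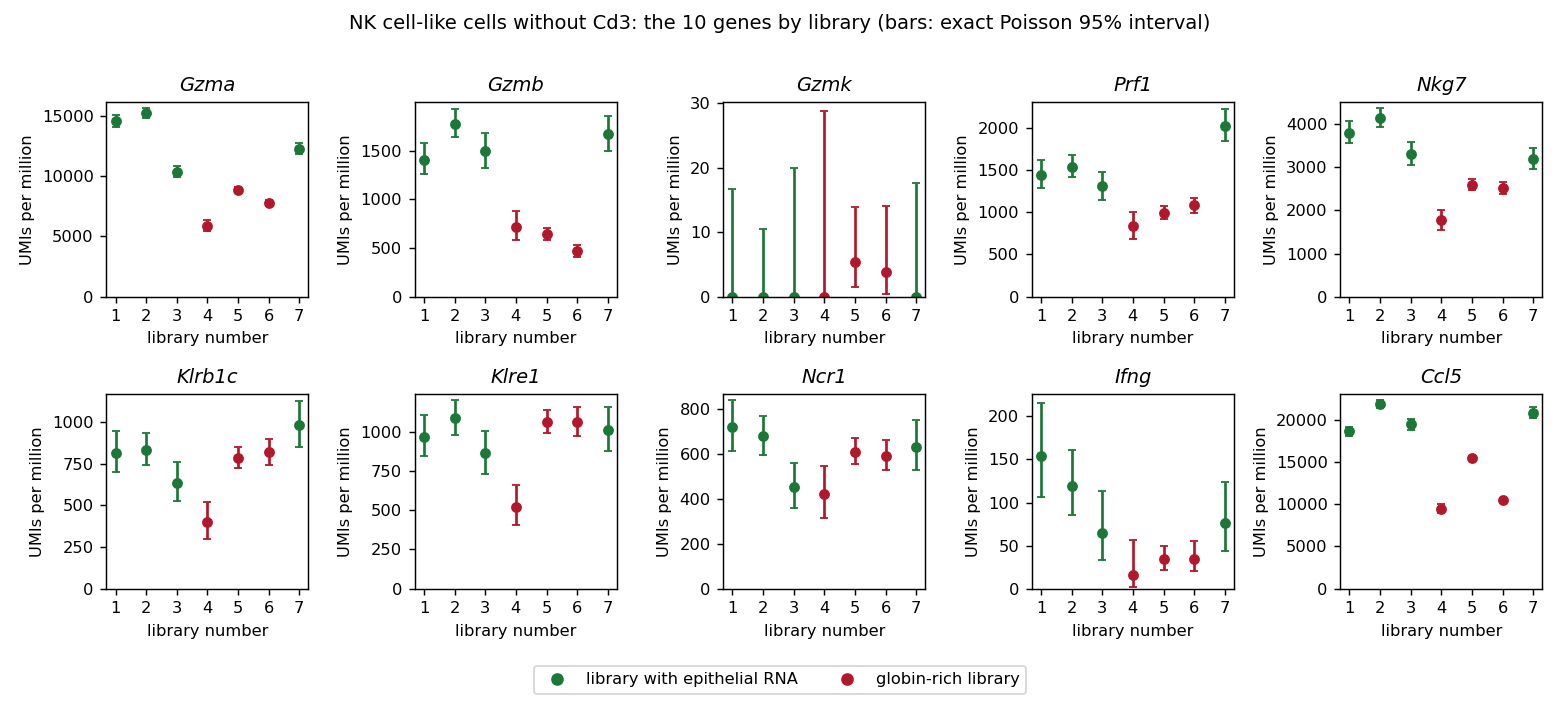
CPM of each gene (vertical axis, from 0) in NK cell-like cells without Cd3 by library number (horizontal axis), with exact Poisson 95% intervals as bars, for libraries with epithelial RNA (green) and globin-rich libraries (red). Gzma, Gzmb, Prf1, Nkg7, Ifng and Ccl5 are higher in all 4 green libraries than in all 3 red ones, and the receptor genes overlap.

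Thus 6 of the 9 genes with enough UMIs were higher in each library with epithelial RNA than in each globin-rich library, against 11.7% of the 5664 genes compared. Hemoglobin RNA moved with this division, at 40.4%, 6.30% and 9.64% of NK cell-like UMIs in libraries 4, 5 and 6 and at most 0.00227% in the others, and the median depth of the cells was 3599 to 5334.5 UMIs in libraries 1, 2, 3 and 7 and 5179 to 8041.5 in libraries 4, 5 and 6. With hemoglobin genes left out of the totals 5 of 9 genes were separated, against 5.99% of genes, and Prf1 overlapped (1309 to 2030 CPM against 1063 to 1398). Gzmb then stood at 1408 to 1778 CPM against 514 to 1202, and Ifng at 64.7 to 154 CPM against 26.1 to 38.7. The part of tissue, preparation and model in these differences was not tested.

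In Cd8a cells Ifng alone of the 9 genes separated the libraries in this way, a count of 1 that is near the share of 6.76% over the 8274 genes compared. It was at 113, 50.045, 14.96 and 70.6 CPM in libraries 1, 2, 3 and 7 and at 3.97, 6.10 and 1.27 CPM in libraries 4, 5 and 6. Gzma in Cd8a cells was at 408, 1341, 459, 149, 1354, 358 and 1197 CPM in libraries 1 to 7, and Gzmb at 131, 353, 262, 47.7, 454, 38.7 and 262 CPM. Library 5 was high for both, unlike its globin-rich neighbours 4 and 6. Gzmk was at 96.2, 137, 37.4, 15.9, 103, 31.7 and 164 CPM, and the same libraries 2, 5 and 7 were among its highest. In Cd4 cells Ifng was at 14.5 to 130 CPM in the libraries with epithelial RNA and at 0 to 7.57 CPM in the others, and this count of 1 of 7 genes is no more than the share of 14.2% over the 7826 compared. Prf1 was lower in each of them (1.98 to 10.7 CPM against 18.2 to 37.7), 1 of 7 against 4.65%, and without library 4, with 2 of its 12 cells holding a UMI, Prf1 had too few UMIs to be counted.

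Cd8a cells differed among themselves. Those with a UMI of the division genes Mki67 or Top2a (122 cells) had 2234 CPM of Gzma, 721 CPM of Gzmb and 197 CPM of Gzmk, against 319, 76.0 and 40.3 CPM in the 664 without. Gzma and Gzmk were higher with division genes in 7 of 7 libraries and Gzmb in 6 of 7. Prf1 was at 85.4 and 70.6 CPM and higher in 4 of 7 libraries, so the pore gene did not share the difference of the granzymes. Nkg7 was at 1716 and 760 CPM, and higher in 7 of 7 libraries. Cells with division genes were deeper, with medians of 10192 and 7213 UMIs. At equal depth Gzmb was in 29 of 59 cells with them (49.2%, 35.9 to 62.5) and in 73 of 726 without (10.1%, 7.97 to 12.5), and Prf1 in 4 of 59 (6.78%) and 88 of 726 (12.1%).

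**Figure D4:**
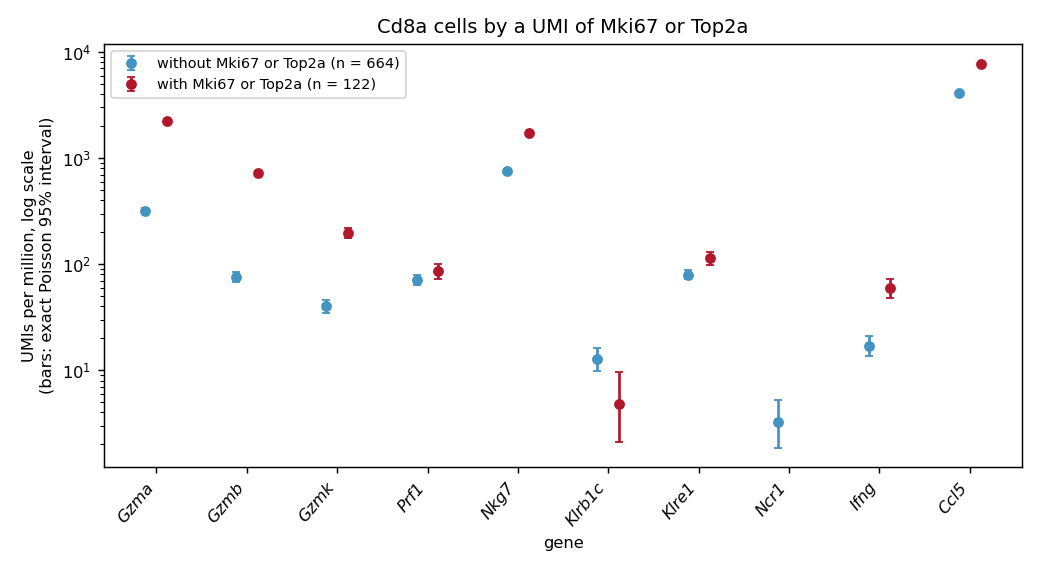
CPM of the 10 genes on a log scale (vertical axis, exact Poisson 95% intervals as bars) in Cd8a cells with and without a UMI of Mki67 or Top2a. The granzyme genes stand apart, with Gzma at 2234 and 319 CPM, Prf1 stands close at 85.4 and 70.6 CPM, and Ncr1 has no point for cells with Mki67 or Top2a, where it had 0 UMIs.

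NK cell-like cells divided less sharply. The 117 cells with a UMI of Cd27, a receptor of less mature NK cells, had 448 CPM of Gzmb against 1285 in the 314 without, and Gzmb was lower with Cd27 in 7 of 7 libraries. Prf1 was at 863 and 1438 CPM and also lower in 7 of 7, and Gzma was at 7523 and 11764 CPM and lower in 6 of 7. Klre1 (958 and 1033 CPM) was lower in 4 of 7 and Ifng (60.5 and 64.8 CPM) in 5 of 7, and without library 5 the Ifng order turned, with a ratio of 1.16. Gzmk was at 6.44 CPM with Cd27 and 0.636 CPM without, on 6 UMIs in all. Cells with Itgam, a marker of mature NK cells (297), had 11130 CPM of Gzma against 8425 in the 134 without, higher in 7 of 7 libraries. Only 33 of the 431 NK cell-like cells held Mki67 or Top2a. Pooled over libraries, Gzmb was at 809 CPM in them and 1031 CPM in the others, the opposite order to Cd8a cells. This order was not read within libraries. At equal depth Gzmb was in 3 of 8 cells with them (8.52 to 75.5%) and 246 of 407 without (55.5 to 65.2%). These intervals overlap, so the contrast with Cd8a cells is not settled.

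Few Cd4 cells held these genes. Of the 283 Gzma UMIs in Cd4 cells 94.3% lay in 10 cells, and the level in libraries 1 to 7 was 1.32, 9.20, 2.68, 801, 250, 6.81 and 36.5 CPM. The value of library 4 came from 1 of its 12 Cd4 cells, and without library 5 the pooled level was 27.5 CPM. Ccl5 in Cd4 cells was at 101, 935, 765, 1800, 1623, 11.9 and 1709 CPM, with 61.9% of its UMIs in 10 cells. Where Ccl5 was found at equal depth Nkg7 was too in 41 of 71 cells (57.7%), against 46 of 565 (8.14%) elsewhere. Among the 71 Cd4 cells with a UMI of Foxp3, the regulatory T cell factor, Gzmb was at 186 CPM (154 to 223) against 41.3 CPM (35.4 to 47.8) in the 569 without. The order of Gzmb held in 4 of 6 libraries, with a ratio of 4.51 that was 2.87 without library 1, and the CPM of Ccl5 (206 and 805), Nkg7 (82.9 and 257) and Gzma (4.69 and 64.9) ran the other way. At 1500 UMIs per cell, with Foxp3 also read after thinning, shares of cells were compared in place of CPM. Ccl5 then had a UMI in 6 of 34 cells with Foxp3 (17.6%, 6.76 to 34.5) and 65 of 602 without (10.8%, 8.43 to 13.6). This share ran opposite to the CPM, of which a few cells held most UMIs. The intervals for Ccl5 overlap, as do those for Nkg7 (2 of 34, 0.720 to 19.7%, and 85 of 602, 11.4 to 17.2%). Gzmb was then in 5 of 34 (14.7%, 4.95 to 31.1) and 21 of 602 (3.49%, 2.17 to 5.28), and these intervals overlap too. Without library 3 the ratio of Nkg7 was 0.0504 in place of 0.323 and that of Ccl5 0.1003 in place of 0.257, and without library 2 that of Nkg7 was 0.543. Without library 1 the ratio of Gzma was 0.0426 in place of 0.0723. Gzmk had 0 UMIs in the Foxp3 cells, which allows up to 4.69 CPM, and 29.7 CPM in the others.

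Cd4 cells with a UMI of Cxcr6 or Icos (436), genes of activated and tissue T cells, had 76.7 CPM of Gzmb against 13.7 in the 204 without, higher in 6 of 6 libraries, and 43.1 CPM of Ifng against 8.37. The Ifng ratio of 5.16 was 1.98 without library 2 and 18.0 without library 3, and the Gzmb ratio of 5.60 was 3.44 without library 5. Prf1 had the opposite order, with 5.22 CPM with Cxcr6 or Icos and 23.6 CPM without, and its ratio of 0.221 was 0.137 without library 5 and 0.349 without library 1. At equal depth Gzmb was in 16 of 270 cells with Cxcr6 or Icos (3.42 to 9.45%) and 10 of 366 without (1.32 to 4.97%). Ifng was then in 12 of 270 (2.32 to 7.63%) and 6 of 366 (0.604 to 3.53%), and Prf1 in 2 of 270 (0.0898 to 2.65%) and 12 of 366 (1.71 to 5.66%). For each of these genes the intervals overlap. The 65 cells of the Cxcr6 and Icos cluster with no Cd3 UMI held 8 UMIs of Ccl5, 2 each of Gzma and Nkg7, 1 of Prf1 and 0 of the other 6 genes, which allows up to 8.80 CPM for each of these.

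Cd3-positive cells with neither Cd8a nor Cd4 were uneven. Gzma was at 447 CPM, but 99.3% of its UMIs lay in 36 of the 535 cells, those with at least 5 of the genes, and in libraries 1 to 7 it was at 135, 224, 10.9, 1503, 3032, 7.66 and 0 CPM. Without library 5 it was at 176 CPM, and Gzmb was at 43.0 CPM in place of 83.3, Gzmk at 4.03 in place of 11.2 and Klre1 at 33.3 in place of 60.5. Cells with a UMI of Trdc or Tcrg-C1, gamma delta T cell receptor genes (148), had 452 CPM of Gzma against 445 in the 387 without. At equal depth Gzma was in 2 of 98 cells with these genes (0.248 to 7.18%) and 20 of 415 without (2.97 to 7.35%). Ifng was at 2.12 CPM with these genes and 23.9 CPM without. Library 2 held 47 of the 58 Ifng UMIs, and without it the Ifng levels were 2.97 CPM (0.359 to 10.7) and 4.89 CPM (2.24 to 9.29). NK cell-like cells with a Cd3 UMI (39 cells) had Klrb1c at 819 CPM and Ncr1 at 687 CPM, not below those without (787 and 607 CPM). Gzma was lower in them, at 7654 CPM against 10363, and Gzmb, Prf1, Nkg7, Klre1 and Ccl5 were lower as well. The 32 T cell-like cells without a Cd3 UMI were mixed, with a pooled Gzma level of 7158 CPM that came from 13 of them (40.6%), and 14 held at least 5 of the genes.

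Among dendritic cells Ccl5 was high in the mature class, and 8 of the other 9 genes were at 0 to 0.344 CPM there, with Klre1 at 5.50 CPM. Mature dendritic cells (232), which bear Ccr7 (2109 CPM), Ccl22 (3391 CPM) and Fscn1 (1208 CPM) and move to lymph nodes, had 2627 CPM of Ccl5 (2568 to 2686), in 138 cells (59.5%, 52.9 to 65.9). Conventional type 1 dendritic cells had 4.36 CPM (2.92 to 6.26), plasmacytoid dendritic cells 3.004 CPM (0.364 to 10.9) and conventional type 2 dendritic cells 34.4 CPM (31.0 to 38.1). The level of type 2 cells fell to 10.4 CPM when 13 cells with a UMI of Ncr1, Gzma or Prf1 were left out. In mature dendritic cells the same removal took 2 cells and left 2649 CPM. Without cells holding a UMI of Cd3d, Cd3e, Cd3g, Trac, Klrd1 or Klrk1 the level was 2250 CPM in 136 cells. Cd3d, Cd3e and Cd3g were at 0.688 to 2.06 CPM in the class, and Eomes at 0. Klrd1 was found in 29.3% of its cells (94.6 CPM) and Klrk1 in 22.0% (54.0 CPM). Removal by a set that holds Klrd1 and Klrk1 is therefore no measure of T or NK cell RNA alone.

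Ccl5 in mature dendritic cells differed by library. It was at 1582 CPM in library 1 (81 cells), 5968 in library 2 (45), 5479 in library 3 (26) and 895 in library 7 (77). Libraries 2 and 3 were thus several times above libraries 1 and 7, all with epithelial RNA. The globin-rich libraries held 3 such cells in all. The 10 cells with most Ccl5 held 36.2% of the 7640 UMIs. Klre1 was above the B cell level of 0.774 CPM in each conventional class, at 4.66 CPM in type 1 cells (27 of 405 cells, 6.67%) and 6.99 CPM in type 2 cells (56 of 734, 7.63%), while 0.466% of B cells held it. Type 2 cells without a UMI of the set above, Klrd1 and Klrk1 included, had 0.526 CPM on 1 UMI in 165 of the 734 cells. Type 1 cells without one had 5.21 CPM in 75 of the 405. Endothelial cells, with 3.91 CPM, were near the dendritic values in CPM but not in share. At most 0.687% of endothelial cells in a library held a Klre1 UMI.

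**Figure D5:**
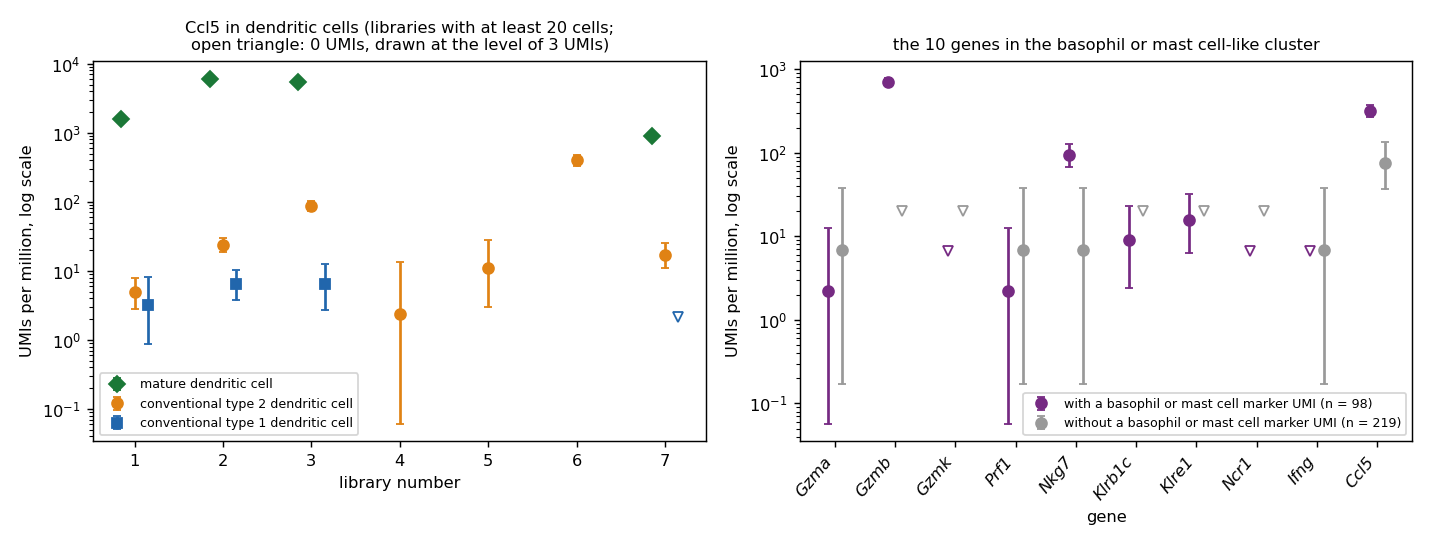
Left, Ccl5 in CPM on a log scale by library number for 3 dendritic classes, for libraries with at least 20 cells of the class; right, the 10 genes on a log scale in the basophil or mast cell-like cluster, for cells with and without a marker UMI of that type. Bars are exact Poisson 95% intervals and open triangles stand at the level of 3 UMIs where 0 were found; mature dendritic cells lie at 895 to 5968 CPM, and Gzmb at 698 CPM stands far above Prf1 and Gzma at right.

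Gzmb was also found outside lymphoid cells. The cluster named basophil or mast cell-like (317 cells, median 723 UMIs) had 525 CPM of Gzmb (468 to 587), above the pooled level of Cd8a cells. Of its 312 Gzmb UMIs 74.7% lay in 10 cells. Its 98 cells with a UMI of a basophil or mast cell marker (Ms4a2, Cpa3, Mcpt8, Cd200r3, Fcer1a or Cyp11a1) held all 312 Gzmb UMIs, at 698 CPM (623 to 780) in 30 cells (30.6%, 21.7 to 40.7). The 219 cells without such a UMI held 0 Gzmb UMIs but were far shallower (medians of 556 and 4238 UMIs). Pooled over these 219 cells the level of Gzmb was thus below that of the 98. A shallow cell is less likely to show a marker UMI, so the cells with and without one differed in depth as well as in Gzmb. Of these 219 cells 147 held a UMI of an eosinophil marker, so the name was borne out for the 98 cells and not for the cluster as a whole. In the 98 cells Prf1 and Gzma had 1 UMI each (2.24 CPM), Ncr1 and Gzmk 0, and Nkg7 94.0 CPM. Gzmb thus stood there with Nkg7 but nearly without Prf1, Gzma and Gzmk. By library it was at 823, 563, 1309.7, 45.9, 0, 0 and 143 CPM, and libraries 4, 5 and 6 held 14 of the 317 cells. The cluster was thus above Cd8a cells in libraries 1, 2 and 3 only, and library 7 held 197 of the 317 cells. Ccl5 in this cluster, 259 CPM, rests on 1 cell with 139 of its 154 UMIs, and was at 26.2 CPM without library 4.

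Over the 23 classes of at least 100 cells, the genes whose levels, as log2 of CPM plus 1, ran most like those of each gene were named with Pearson's r as a description, since all classes come from the same libraries. They were Klrc2 (0.957) and Eomes (0.930) for Gzma, Sytl3 (0.964) and Skap1 (0.936) for Gzmb, and Art2b (0.96986) and Gm14085 (0.960) for Gzmk. For Prf1 they were Eomes (0.973) and Samd3 (0.960), and for Nkg7 Gm2682 (0.966) and Il2rb (0.964). Klrb1c ran with Klra7 (0.965) and Klra9 (0.938), Klre1 with Klra7 (0.943) and Klrc2 (0.921), and Ncr1 with Klra4 (0.980) and Klra8 (0.976). Ifng ran with Gm37387 (0.987) and Sla2 (0.984), and Ccl5, high in mature dendritic cells as well, had the lowest values, with Ctsw (0.877) and Cst7 (0.867). Eomes, Il2rb, Klra4, Klra7 and Klra8 had also served to name the NK cell-like cluster, so their high r is no finding.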

How the data were processed

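The authors prepared single-cell suspensions of mouse lung on the 10x Chromium 3' system. The labels give reagent version 3 and the supplementary methods version 2, and the sources do not settle this. The deposited values are raw UMI counts per gene and barcode, made by the authors with Cell Ranger 3.1.0 (named in the file header) and STAR on mm10, per the labels, after reads had been down-sampled between libraries.

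From the counts, barcodes with at most 10% mitochondrial UMIs were kept. The 10 genes were left out of the clustering and of the marker lists. The 2000 most variable genes gave 30 components. Mutual nearest neighbors (20) served to align the libraries, and Leiden clustering at resolution 0.8 (leidenalg 0.10.2) gave 52 clusters, 3 of them unnamed. Marker lists named the clusters. After the clusters had been seen, those led by endothelial or neutrophil genes under another name were left unnamed, and the cluster that scored highest on the ILC2 list, among whose cells many bore Cd3 and Cd4, was called by its leading genes Cxcr6 and Icos. Doublets were kept in the main values, and Scrublet (scanpy 1.11.5) marked 709 cells. Python 3.11.15, NumPy 2.4.6, SciPy 1.17.1, pandas 2.3.3 and scikit-learn 1.9.0 were used, and figures were drawn with matplotlib 3.10.9.

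UMIs were pooled per class and divided by the class total (CPM), with exact Poisson and binomial intervals at 95%. PCR copies are removed by the UMIs, and the intervals leave out variation between mice. A count of 0 was read as allowing 3. Cells are not replicates and no test was run. Genes were counted past a 2-fold difference with at least 50 UMIs in the pair. Cells with at least 1500 UMIs were thinned to 1500 UMIs for shares at equal depth, and shallower cells were left out. The genes named were the 10, the 5 of largest fold in each direction from the list, and the 2 most alike outside the 10. Members and lists were chosen with earlier results of these data known. The steps were tested on simulated data. Alternatives to the cell filter, doublets, alignment, resolution, gates, library weights, depth and totals were computed, and each library was left out in turn. A division of the T cells by further markers is not reported here.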

Additional observations from a re-analysis of the deposited data

How the results depend on the processing

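No paired analysis was possible because the libraries carry no group and no test was run. The number of genes higher, by any amount, in NK cell-like than in Cd8a cells was 9 under 15 of 16 alternatives, with each library left out included. Cells taken by UMIs alone, with no clusters, gave 4. That gate admitted 3053 cells, of which 14.1% were NK cell-like by cluster and 17.8% endothelial. The summed level of the 10 genes was 34183 CPM in NK cell-like, 7294 in Cd8a and 1155 in Cd4 cells. With Scrublet calls removed these were 34485, 7421 and 1196, with gates by UMIs alone 2680, 7071 and 960.2, with libraries weighted equally 37720, 7723 and 1302, and with Ccl5 left out 18082, 2315 and 428. Thinning gave 37197 in NK cell-like and 8749 in Cd8a cells, no alignment 7360 in Cd8a cells, at least 2 UMIs of Cd8a or Cd4 7545 and 1344 in Cd8a and Cd4 cells, and cells within 2 SD 1205 in Cd4 cells. Leaving out each library gave 31870.5 to 36804.5, 6668 to 8077 and 945 to 1575. Ccl5 in mature dendritic cells, 2627 CPM, was 3459 within 2 SD, 2559 without alignment, 2555 at resolutions 0.4 and 1.6 and 3481 with libraries weighted equally. It was 3003 after thinning, 2250 without cells holding a UMI of a Cd3 gene, Trac, Klrd1 or Klrk1, and 1849 to 3640 with each library left out.

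Alternatives chosen after the data were seen left out hemoglobin genes, giving 36480 in NK cell-like and 7539 in Cd8a cells, and gave 5 to 6 of 9 genes higher in every library with epithelial RNA, in place of 6. Scrublet marked 428 cells in library 2 and 0 in library 6, so doublets were found unevenly. Depth limits Gzmk in NK cell-like cells (6 UMIs), Ncr1 in Cd4 cells (5) and every value of library 4, with 14 NK cell-like and 12 Cd4 cells. The spread between mice could not be measured.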
